A study of Homo sapiens with 16 samples.

Results

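A set of 114 of the 60676 genes in the table of HCT116 read counts was nearly silent without HMBA and was read with HMBA in the 8 libraries numbered 2. The genes were chosen by their own counts in those libraries. A gene had at most 20 reads summed over the 4 libraries without HMBA, and at least 1 CPM (the count over the library total, times 1000000) in each of the 4 with HMBA. Of 45605 genes that met the first condition, 115 met the second, of which the histone gene H2BC6 was left out because HOX, SEMA, WNT, histone and MT1 symbols were not taken. The rise with HMBA is therefore the way the genes were picked and is described below without a test. What the choice did not fix is the kind of gene, the response to the shRNA and to EPZ-5676 while HMBA was present, and the levels in the libraries numbered 1.

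HCT116 is an established human colorectal carcinoma line. The study crossed 2 shRNA labels, shCTL (control) and shNELFE (against NELFE), with 4 treatments, DMSO, EPZ-5676, HMBA, and EPZ-5676 with HMBA, in 8 groups of 2 poly(A) RNA libraries. DMSO is named for the untreated arms only, and the sources used here give no dose, time or number of hairpins. The labels do not say whether replicates are separate cultures. A p-value therefore speaks for these libraries alone, whose spread may be technical. The 4 libraries in the main test below each come from another group, so that fit holds no replicate. Its spread is what separate shRNA and EPZ-5676 terms leave over, not a spread between replicates.

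NELFE is a subunit of the negative elongation factor, which holds RNA polymerase II paused shortly after it starts a gene. HMBA (hexamethylene bisacetamide) is a differentiation-inducing compound known to free the elongation kinase P-TEFb from the complex with HEXIM1, and it raises HEXIM1 RNA in many cells. EPZ-5676 (pinometostat) inhibits DOT1L, the enzyme that methylates histone H3 at lysine 79 along transcribed genes. Genes that serve other tissues are usually silent in a carcinoma line.

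HEXIM1 was read at 351 to 365 CPM with HMBA and at 74.4 to 90.3 CPM without it in the libraries numbered 2. NELFE stood at 14.2 to 24.1 CPM in the 4 shNELFE libraries numbered 2 and at 64.8 to 90.1 CPM in the 4 shCTL libraries. Of the libraries numbered 1, only the one labelled shNELFE, EPZ-5676 and HMBA was like these, with HEXIM1 at 274 CPM, NELFE at 10.5 CPM and a correlation across 30331 genes of 0.988 with its replicate 2. The other 7 stood apart. Their log2 CPM correlated at 0.870 to 0.904 with the libraries numbered 2, which correlated at 0.967 to 0.993 with each other. Their HEXIM1 was 40.8 to 78.3 CPM whatever the label, and NELFE was 82.1 to 258 CPM in them. Results below rest on the libraries numbered 2 unless said otherwise, and totals were 13428893 to 16354111 counts in those and 17867037 to 21319666 in the libraries numbered 1.

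The epithelial markers EPCAM, CDH1, KRT8, KRT18, KRT19 and CDX2 were read in all 8 libraries numbered 2. VIL1, LGALS4, CEACAM5 and CDH17, markers of differentiated intestinal epithelium, were each at 15 reads or fewer summed over the 4 libraries with HMBA and at 4 or fewer over the 4 without. In bulk RNA, fewer cells with a transcript and less transcript per cell cannot be told apart, so a level of a few CPM may come from few or many cells.

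The members were low even when on. Their mean over the 4 libraries with HMBA ran from 1.12 to 18.9 CPM with a median of 2.22 CPM. Only 5 reached 10 CPM and 18 reached 5 CPM, while 49 were under 2 CPM. Together they took 0.0372% of the counts in libraries with HMBA and 0.00207% in those without. At these depths 1 CPM is 13.4 to 16.4 reads, and 3 reads, the limit that a count of 0 allows, are 0.183 to 0.223 CPM. Without HMBA the median member had 11 reads summed over the 4 libraries, and 8 members had 0. These limits cover counting error only.

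By annotation (GENCODE 29 on hg38) the set held 71 protein-coding genes, 15 antisense genes, 9 long intergenic RNA genes, 8 pseudogenes and 7 genes of other noncoding types, while 4 identifiers were not in that release. The protein-coding members were 1.01% of the 7040 protein-coding genes that were near silent without HMBA, and the antisense members 0.301% of 4986. All members were 0.25% of the near-silent genes. The 4 identifiers without an annotation include the highest member, ENSG00000287064, with a mean of 18.9 CPM. CPM is not corrected for transcript length, so an order between genes here is an order of reads.

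**Figure D1:**
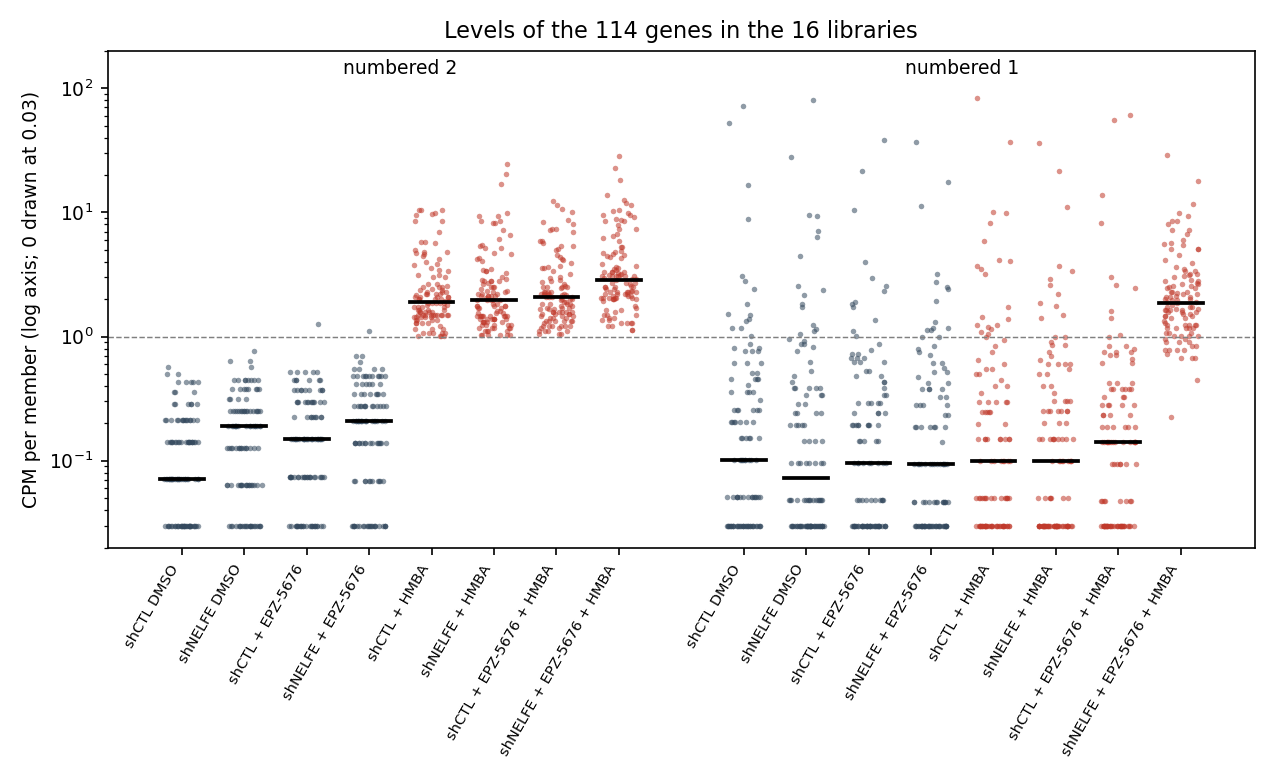
Each point is 1 of the 114 genes in 1 library, on a log axis of CPM, with the libraries numbered 2 at left and those numbered 1 at right, HMBA in red, and a bar at the median. The dashed line is the 1 CPM limit of the choice. The medians with HMBA were 1.89 to 2.87 CPM in the libraries numbered 2, and of the libraries numbered 1 only the one with shNELFE, EPZ-5676 and HMBA, at 1.87 CPM, was near them.

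Promoter sequences are shown for 5 members that stand for what follows: a receptor with no read in the 4 libraries numbered 2 without HMBA, a gene pair on chromosome 7, 1 gene of a transporter pair on chromosome 12, and a secreted peptide. Each line gives the 250 bases before the RefSeq start (GRCh38.p14), 5′ to 3′ on the strand of the gene, with matches in capitals. The letters searched on both strands were TATAAA for the TATA box, CCAAT for the box of that name, GGGCGG for the GC box, CACGTG for the E-box, TGANTCA for the AP-1 site and TGACGTCA for the cAMP response element, and no match printed overlaps another.
ADRA2A: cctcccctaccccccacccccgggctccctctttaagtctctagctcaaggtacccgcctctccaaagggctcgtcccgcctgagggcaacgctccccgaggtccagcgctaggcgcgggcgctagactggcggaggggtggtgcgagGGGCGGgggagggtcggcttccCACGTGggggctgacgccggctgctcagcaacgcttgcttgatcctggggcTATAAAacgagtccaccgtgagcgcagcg
MGAM: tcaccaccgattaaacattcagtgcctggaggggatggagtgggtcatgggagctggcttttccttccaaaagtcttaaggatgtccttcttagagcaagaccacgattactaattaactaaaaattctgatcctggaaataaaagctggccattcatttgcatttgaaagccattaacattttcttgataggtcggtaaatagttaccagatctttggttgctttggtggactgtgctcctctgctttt
MGAM2: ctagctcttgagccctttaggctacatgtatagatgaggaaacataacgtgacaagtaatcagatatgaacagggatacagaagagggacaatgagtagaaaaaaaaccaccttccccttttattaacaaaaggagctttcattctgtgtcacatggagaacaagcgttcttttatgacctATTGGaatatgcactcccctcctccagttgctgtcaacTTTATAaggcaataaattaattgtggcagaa
SLC6A13: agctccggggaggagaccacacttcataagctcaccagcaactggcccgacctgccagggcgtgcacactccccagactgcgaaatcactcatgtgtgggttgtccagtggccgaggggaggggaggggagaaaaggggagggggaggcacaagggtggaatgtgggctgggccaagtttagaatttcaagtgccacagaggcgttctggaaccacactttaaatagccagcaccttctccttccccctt
NPPC: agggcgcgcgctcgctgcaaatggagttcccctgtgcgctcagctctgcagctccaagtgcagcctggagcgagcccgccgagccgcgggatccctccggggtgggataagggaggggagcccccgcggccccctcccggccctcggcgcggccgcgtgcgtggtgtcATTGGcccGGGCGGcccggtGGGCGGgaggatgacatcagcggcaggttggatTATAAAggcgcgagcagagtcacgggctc
These lie at chr10:111076779-111077028 (ADRA2A, plus strand), chr7:141995629-141995878 (MGAM, plus strand), chr7:142111468-142111717 (MGAM2, plus strand), chr12:262837-263086 (SLC6A13, minus strand) and chr2:231926397-231926646 (NPPC, minus strand). ADRA2A has TATAAA 29 to 24 bases before the start, GGGCGG 102 to 97 before it and CACGTG 80 to 75 before it. NPPC has TATAAA at the same 29 to 24 bases, CCAAT read on the other strand at 82 to 78, and GGGCGG at 74 to 69 and 62 to 57. MGAM2 has TATAAA on the other strand 31 to 26 bases before the start and CCAAT on the other strand 69 to 65 before it. MGAM and SLC6A13 hold none of the 6 in this window. Bases just after the RefSeq start were found in a GENCODE transcript for MGAM, SLC6A13 and NPPC, but not for ADRA2A and MGAM2. The positions given for ADRA2A and MGAM2 thus rest on the RefSeq start alone.

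Over 11312 protein-coding genes with 1 promoter entry, TATAAA was in 10.5% of the 300-base windows (250 before to 50 after the start), CCAAT in 37.6%, GGGCGG in 59.7%, CACGTG in 8.88%, TGANTCA in 5.75% and TGACGTCA in 2.88%. No motif is in all 5 sequences, and their base composition runs from 39.2% G and C in MGAM2 to 72.0% in NPPC. A match is a description of letters and not a site of binding. A comparison of motifs over the members is void, because 35 of the 71 protein-coding members (49.3%) had 1 entry and 45 (63.4%) had any, under the 80% needed.

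Gene size could be set out for all 71 protein-coding members. The median span was 29.8 kb, against 33.8 kb over 4793 protein-coding genes read at the same level. Here and below, genes at the same level had at least 1 CPM in all 4 libraries with HMBA and a mean within the members' range of 1.12 to 18.9 CPM. They were not matched to the members within that range. The span was 15.8 kb over the 6948 other protein-coding genes that were near silent without HMBA. The members' longest transcript had a median of 3299 bases, against 3605 and 2238 in these sets, in that order. Its median G and C content was 51.3%, against 49.5% and 49.6%. In span and transcript length the members were thus nearer to the genes that HCT116 expresses than to the rest of the silent genes; the count limit itself favours long transcripts, and no test was made.

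The protein-coding members did not belong to 1 tissue. Against 17 lists of tissue genes, 12 members were found among 507 list genes that were near silent without HMBA, a share of 2.37%. They came from 8 lists: SYN1 and THY1 from neuron, MOBP from glia and myelin, ACTA1 and RPL3L from muscle, TG from thyroid and other glands, ASTL and PIWIL2 from germ cells, IL10RA and ITGAM from blood and immune cells, SLC6A12 and SLC13A3 from kidney, and THY1 again from endothelium and fibroblast. The lists for liver, epidermis, retina, intestine, pancreas, cartilage, placenta, lung and adipose tissue held 0 members. For comparison, 71 of 7040 near-silent protein-coding genes, 1.01%, were members. A wider grouping of the 71 by the tissue each is best known from was made after the members were known and is a description only. It put 14 with blood and immune cells, 13 with the nervous system, 11 with testis, oocyte and cilia, 8 with developmental and vessel signalling, 6 with muscle, 5 with liver and kidney, 4 with intestine, 1 with thyroid and 9 with none.

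**Figure D2:**
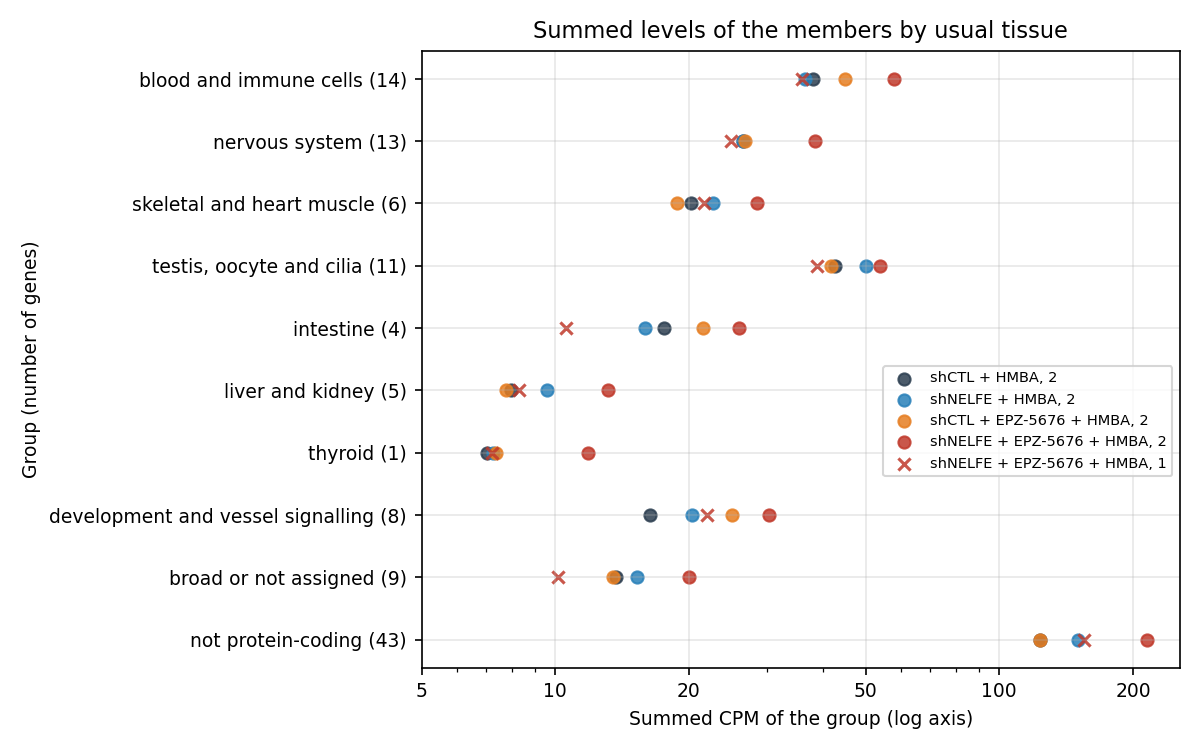
Points give the summed CPM (log axis) of each group of members in the 4 libraries numbered 2 with HMBA and, as crosses, in replicate 1 of shNELFE with EPZ-5676 and HMBA. The number of genes stands beside each group. In all 10 groups the highest point is the replicate 2 library of shNELFE with EPZ-5676 and HMBA, and the cross lies lower than it in each.

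Values for the 4 libraries with HMBA are given from here in the order shCTL, shNELFE, shCTL with EPZ-5676, and shNELFE with EPZ-5676, all numbered 2. Of the germ-line genes, ASTL, an egg protease that cleaves the zona pellucida after fertilisation, was at 8.51, 16.9, 5.32 and 13.7 CPM. PIWIL2, which binds piRNAs in male germ cells, was at 10.4, 8.57, 10.7 and 8.52 CPM. The shNELFE libraries were the highest for ASTL, whereas for PIWIL2 both were lower than both shCTL libraries by less than 3 CPM. Without HMBA, ASTL was at 0.127 to 0.207 CPM and PIWIL2 at 0.142 to 0.276 CPM in those 4 libraries. GCNA, a germ-cell nuclear protein, was at 4.22, 4.32, 5.32 and 3.34 CPM, and the testis transcription factor SOX30 at 2.22, 3.22, 2.26 and 3.05 CPM. DNAH3, a heavy chain of axonemal dynein, went from 4.0 to 6.15 CPM between the libraries without EPZ-5676 and from 5.69 to 9.58 CPM between those with it. RFPL4A, an oocyte gene with near-identical copies, was at 1.29, 2.86, 2.14 and 3.69 CPM, and its reads may be shared with the copies. Higher shNELFE values within both pairs were thus seen for ASTL, DNAH3, SOX30 and RFPL4A, but not for PIWIL2 or GCNA. GCNA was lower with shNELFE in the pair with EPZ-5676 only. Of the 11 members grouped with testis, oocyte and cilia, 5 had a fitted shRNA effect above 0 in the main test below. The median of these 11 effects was -0.007 on the log2 scale.

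Among genes of blood and immune cells, ITGAM, the integrin alpha M chain of myeloid cells, had the most reads, at 8.51, 9.31, 7.22 and 18.2 CPM, against 0.214 to 0.380 CPM without HMBA. The first 3 libraries were alike and the last was about 2 times as high, while replicate 1 of that last group had 8.51 CPM. CD200R1, an inhibitory receptor of myeloid cells, was at 3.57, 3.0, 3.55 and 4.75 CPM. LAG3, an inhibitory receptor of T cells, was at 3.15, 2.2, 2.08 and 2.41 CPM. The interleukin-10 receptor chain IL10RA was at 1.93, 1.03, 2.2 and 2.06 CPM, and was one of the members lowest in the shNELFE library without EPZ-5676. Other members of the group included PILRA, HCLS1, CD226, PTGDR2, C1orf162, TMEM119, SH2D3C and CASS4, with means of 1.49 to 2.45 CPM, named after their values were seen. The summed level of PTPRC, CD3E, LYZ and HBB was 0.428 to 1.14 CPM with HMBA and 0 to 0.276 CPM without, with CD3E at 0 reads and PTPRC at 2 reads over the 4 libraries with HMBA. HBB had 25 reads with HMBA against 1 without, and LYZ 16 against 6, and the part of these markers in the result was not tested.

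NEDD9, a scaffold protein of the Cas family known in lymphocytes and migrating cells, was at 5.65, 5.50, 11.5 and 8.73 CPM. Both libraries with EPZ-5676 were thus higher than both without. CASS4, of the same protein family, was at 1.64, 2.64, 2.45 and 2.91 CPM.

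Of the neural members, PCDH19, a protocadherin of neurons, had the most reads, at 4.72, 3.37, 5.08 and 6.46 CPM. DRP2, a dystrophin-related protein of Schwann cells, was at 4.58, 4.18, 2.87 and 4.68 CPM. MOBP, a protein of central myelin, was at 1.72, 2.12, 1.04 and 4.40 CPM, and was thus over 4 times as high in the last library as in the one before it. SYN1, a protein of synaptic vesicles, was at 1.36, 1.32, 1.35 and 1.42 CPM, the narrowest range of these. THY1, a surface glycoprotein of neurons and fibroblasts, was at 1.43, 1.83, 1.53 and 2.27 CPM with 0 reads in the 4 libraries numbered 2 without HMBA. ADRA2A, the alpha-2A adrenergic receptor, was at 1.64, 2.49, 1.53 and 2.48 CPM, also with 0 reads in those libraries. In the libraries numbered 1 without HMBA, THY1 had 5 reads and ADRA2A 18, each in 1 library. Against 3 reads over the 4 libraries, THY1 was at least 33.8-fold higher with HMBA and ADRA2A at least 38.8-fold. The neural markers SOX10, GFAP, SNAP25 and TUBB3 summed to 418 to 607 CPM with HMBA and 153 to 194 CPM without. TUBB3 made up 417 to 606 CPM of that, GFAP was at 0 reads and SOX10 at 1 read, and the part of these markers in the result was not tested.

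Muscle was represented by RPL3L, the striated-muscle form of a ribosomal protein, at 3.43, 8.13, 3.91 and 10.4 CPM. Both shNELFE libraries were more than 2 times both shCTL libraries. LSMEM1, a small membrane protein that overlaps IFRD1 on the same strand, was at 9.72, 8.57, 8.01 and 9.44 CPM. ACTA1, skeletal muscle actin, was at 2.07, 1.10, 1.65 and 1.42 CPM, and its reads may be shared with other actins. Reads of RPL3L may likewise be shared with RPL3.

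TG, the thyroglobulin precursor of thyroid hormone, was at 7.01, 7.25, 7.34 and 11.9 CPM, against 0, 0, 0.149 and 0 CPM in the libraries without HMBA. With 484 reads against 2, its ratio was 241 with a counting interval of 66.3 to 1993 (95%, exact binomial). The first 3 libraries were alike and the last was higher, while replicate 1 of that last group had 7.22 CPM.

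The intestinal digestive enzymes MGAM and MGAM2, maltase-glucoamylases that split starch products and whose promoters are printed above, were switched on side by side on chromosome 7. MGAM was at 9.51, 8.13, 10.03 and 11.5 CPM and MGAM2 at 4.79, 5.13, 7.28 and 9.15 CPM. In replicate 1 of shNELFE with EPZ-5676 and HMBA they were at 4.14 and 3.19 CPM, under all 4 libraries numbered 2 for both genes. Reads may be shared between the pair, which are close copies.

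SLC6A12 and SLC6A13, transporters of betaine and GABA that lie together on chromosome 12, were another such pair. SLC6A12 was at 2.0, 2.78, 2.02 and 5.25 CPM and SLC6A13 at 2.65, 2.49, 1.71 and 2.98 CPM. Both were highest in shNELFE with EPZ-5676, but only SLC6A12 was higher there by more than 2 CPM than in any other. SLC13A3, a kidney dicarboxylate carrier, had the lowest mean of the 114, at 1.07, 1.03, 1.10 and 1.28 CPM. The hepatocyte markers ALB, APOA1 and TTR summed to 0.429 to 1.06 CPM with HMBA and to at most 0.142 CPM without, with TTR at 0 reads.

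Among signalling and developmental genes, FGF18, a secreted growth factor, was at 3.79, 4.69, 5.93 and 7.38 CPM. FOXC2, a forkhead factor of mesenchyme and lymphatic vessels, was at 1.5, 4.62, 2.75 and 6.17 CPM. Each shNELFE library was above the shCTL library with the same treatment for both genes. The natriuretic peptide NPPC and NPR3, the receptor that clears such peptides, were both members. NPPC was at 1.36, 2.34, 2.57 and 2.84 CPM and NPR3 at 2.29, 2.78, 3.0 and 3.83 CPM, and in both the order of the 4 libraries was the same. PLAG1, a zinc finger factor of fetal growth, was at 2.43, 1.47, 4.22 and 2.63 CPM, and CCM2L, an endothelial scaffold protein, at 2.0, 2.2, 3.67 and 2.06 CPM. Both were highest in shCTL cells with EPZ-5676 and HMBA, and each shNELFE value of PLAG1 was under its shCTL pair. PKD1L1, a polycystin-like protein of cilia and testis, was at 3.86, 2.71, 4.52 and 4.54 CPM.

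**Figure D3:**
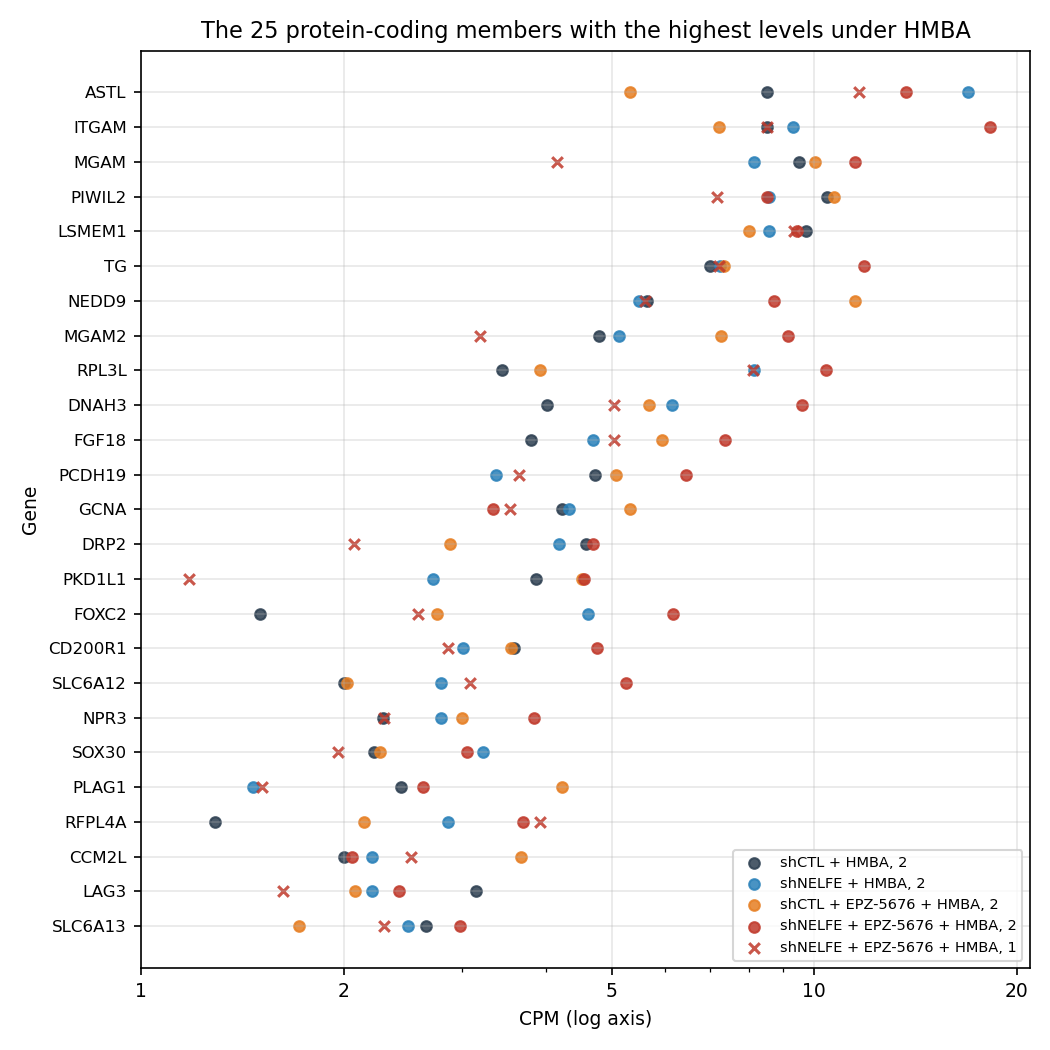
The 25 protein-coding members with the highest mean level under HMBA are shown on a log axis of CPM. Filled points are the 4 libraries numbered 2 and the cross is replicate 1 of shNELFE with EPZ-5676 and HMBA. TG and ITGAM show 3 near-equal points and 1 apart, while for RPL3L and FOXC2 both shNELFE points lie to the right of both shCTL points.

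Among the noncoding members the antisense gene AP000692.2 on chromosome 21 was at 5.79, 20.2, 6.91 and 22.7 CPM. Both shNELFE libraries were about 3 times both shCTL libraries. ENSG00000287064, with no annotation here, had the same order at 9.87, 24.7, 12.4 and 28.5 CPM. The shNELFE libraries also led without HMBA, at 0.380 and 0.690 CPM for this gene against 0.142 and 0.149 CPM. These are 20 reads in all, exactly the limit of the choice, so the values are near the floor and capped by that limit. Whether antisense reads belong to the partner gene cannot be told apart here, since the sources used here name no strand setting for the counts.

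The dependence on the shRNA was tested with edgeR's quasi-likelihood test on the 4 libraries numbered 2 with HMBA, with a term for the shRNA and one for EPZ-5676. At a Benjamini-Hochberg adjusted p under 0.05 over 14049 genes, 10 of the 114 members were higher with shNELFE and 0 were lower. Over all genes 13.6% were called, 5.94% higher and 7.66% lower, and among the 6105 genes in the members' range of levels 2.38% were higher and 3.96% lower. The members' median log2 fold change was 0.29, with 87 of 114 above 0, against a median of -0.01 and 47.8% above 0 for all genes.

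By size, AP000692.2 rose most, with a log2 fold change of 1.78 (SE 0.14, edgeR adjusted p = 1.8e-05). FOXC2 followed at 1.38 (SE 0.27, edgeR adjusted p = 0.00705) and RPL3L at 1.36 (SE 0.20, edgeR adjusted p = 0.00112). ENSG00000287064 rose by 1.29, ASTL by 1.20, RUFY1-AS1 by 1.04, AC243772.2 by 0.84, ITGAM by 0.81, DNAH3 by 0.72 and AC104534.1 by 0.63 on the log2 scale, with edgeR adjusted p of 0.0495 or less. Without replicate 2 of shNELFE with EPZ-5676 and HMBA, ITGAM was at 0.20 (edgeR adjusted p = 0.697) and RUFY1-AS1 at 0.50 (edgeR adjusted p = 0.52), and DNAH3, AC243772.2 and AC104534.1 also lost the call, DNAH3 without any of the 4 libraries. The same 5 lost it without shCTL with EPZ-5676 and HMBA, with ITGAM again at 0.20 and RUFY1-AS1 at 0.50. These are 5 protein-coding genes of germ cells, muscle, myeloid cells, mesenchyme and cilia, 4 antisense genes and 1 gene without annotation. ASTL and DNAH3 were grouped with testis, oocyte and cilia, and the other 3 each with another tissue.

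Fewer members were called for EPZ-5676. In the same fit 2 members were higher with EPZ-5676 and 0 lower, while over all genes 3.28% were called, 1.54% higher and 1.74% lower, and among the 6105 genes in the members' range of levels 0.622% were higher and 0.360% lower. Of the members, 2 (1.75%) were called, both higher. NEDD9 rose by 0.84 on the log2 scale (SE 0.19, edgeR adjusted p = 0.0362), from 5.65 and 5.50 CPM to 11.5 and 8.73 CPM. AC243772.2, an antisense gene on chromosome 1 with 0 reads in the libraries numbered 2 without HMBA but 0 to 39 in those numbered 1, rose by 1.00 (SE 0.24, edgeR adjusted p = 0.0471) and had 2.29, 3.52, 4.10 and 7.88 CPM. It was the only member called in both comparisons. It lost the call without either shNELFE library with HMBA, at 0.87 without the one with EPZ-5676 (edgeR adjusted p = 0.372) and 0.86 without the other (edgeR adjusted p = 0.321). NEDD9 lost it without either shCTL library with HMBA, at 0.62 in both (edgeR adjusted p = 0.183 and 0.149). The median log2 fold change over the members was 0.27, with 85 of 114 above 0, against 0.00 and 50.2% for all genes.

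**Figure D4:**
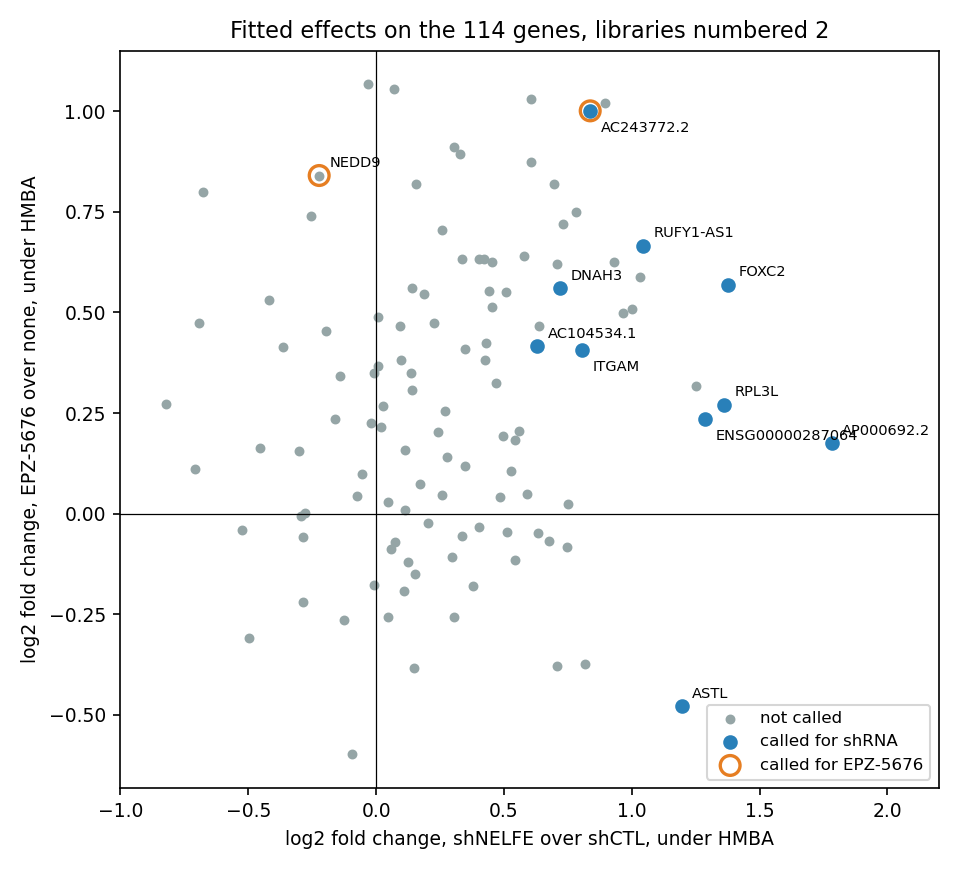
Each point is 1 member, with the fitted log2 fold change for shNELFE over shCTL on the horizontal axis and for EPZ-5676 over none on the vertical axis, both under HMBA. Blue points passed the test for the shRNA and orange rings that for EPZ-5676. All 10 blue points lie to the right of 0, and ASTL is the only one of them under 0 on the vertical axis.

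The shift was uneven over the 4 libraries. Of the 114 members, 78 (68.4%) were highest in replicate 2 of shNELFE with EPZ-5676 and HMBA, against 30.2% of 5655 genes at the same level. The members summed to 313, 355 and 331 CPM in the other 3 libraries and to 495 CPM there. Between shNELFE and shCTL the median log2 ratio was -0.01 without EPZ-5676, with 56 members above 0, and 0.50 with it, with 94 above 0. Between EPZ-5676 and none it was 0.08 in shCTL cells, with 66 above 0, and 0.54 in shNELFE cells, with 99 above 0. Genes at the same level had medians of -0.13, 0.00, -0.03 and 0.09 in these 4 pairs. Each library was also left out of a fit of the 8 libraries numbered 2, which in full called 12 members for the shRNA and 3 for EPZ-5676, with medians of 0.30 and 0.26. For the shRNA, 5 members were called without either library with EPZ-5676 and 13 to 14 without either library lacking it, with medians of 0.06 and 0.50. For EPZ-5676, 1 member was called without either shNELFE library and 6 without either shCTL library, with medians of 0.10 to 0.11 and 0.49.

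Replicate 1 of shNELFE with EPZ-5676 and HMBA was not used in the choice. There 97 of 114 members (85.1%) had at least 1 CPM, against 96.9% of the genes at the same level. Those genes share the members' range but were not matched to them, and the median of the members' means was 2.22 CPM. The part of nearness to the 1 CPM limit in this gap and in the ratios below was not tested. The members summed to 335 CPM in it, close to the 313 to 355 CPM of the other 3 groups and under the 495 CPM of its replicate 2. Relative to replicate 2 the median ratio of the members was 0.642, with 101 lower, against 0.804 for genes at the same level. Relative to shCTL cells with HMBA, replicate 2 had a median ratio of 1.38 with 92 members higher, and replicate 1 a median ratio of 0.892 with 49 higher. The median for genes at the same level was 0.989 and 0.797.

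**Figure D5:**
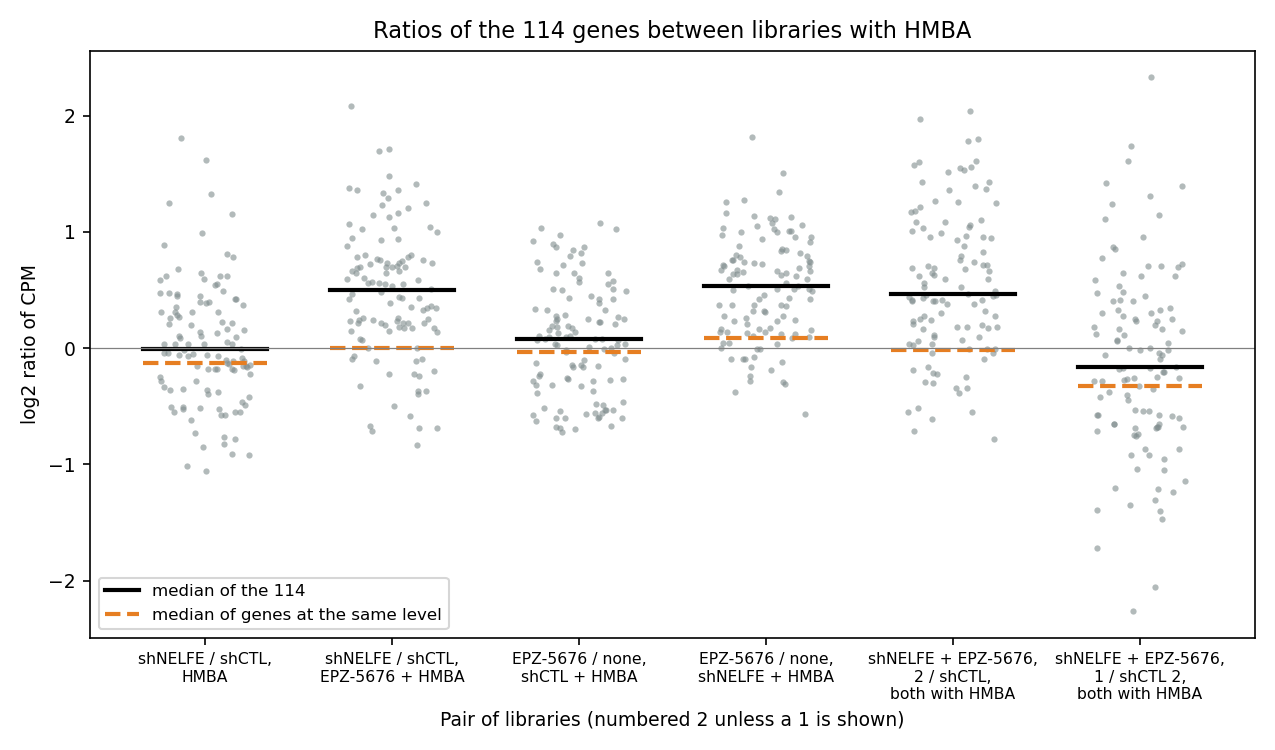
Each point is the log2 ratio of 1 member between a pair of libraries with HMBA, with a black bar at the members' median. A dashed orange bar is at the median of genes at the same level, meaning within the members' range of levels. The members' median is near 0 in the pairs without EPZ-5676 or in shCTL cells, and at 0.50 and 0.54 in the pairs that share replicate 2 of shNELFE with EPZ-5676 and HMBA. The last 2 columns set the replicates of that group over shCTL cells with HMBA. The members' median is 0.46 for replicate 2 and -0.16 for replicate 1, against -0.02 and -0.33 for genes at the same level.

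The replicates of this group agreed least for AL109811.4, a gene that overlaps TARDBP on the same strand, at 0.224 CPM against 2.55 CPM. PKD1L1 was at 1.18 against 4.54 CPM and the testis kinase MAK at 0.448 against 1.63 CPM. At the other end AC046176.1, a processed pseudogene, was at 5.09 against 3.12 CPM, NPPC at 4.53 against 2.84 CPM and AP000692.2 at 29.1 against 22.7 CPM. In all, 82 members were within 2 times between the replicates. With replicate 1 added to the 4 libraries, 0 members were called for the shRNA and 0 for EPZ-5676, while 19 (16.7%) and 5 (4.39%) had an unadjusted p under 0.05, against 8.94% and 3.09% of all genes in that fit. DESeq2 on the 4 libraries gave an adjusted p to 10 members for the shRNA, of which 3 were called, and to 0 for EPZ-5676. At an unadjusted p under 0.05 it had 7 members (6.14%) and 2 (1.75%), against 9.30% and 4.32% of all genes.

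With that library AP000692.2 had a log2 fold change of 1.98, RPL3L 1.34, ASTL 1.24, ENSG00000287064 1.18 and FOXC2 1.12 for the shRNA, with edgeR adjusted p of 0.157 to 0.547. AC104534.1, at the margin before, fell to 0.34. NEDD9 had 0.70 and AC243772.2 0.94 for EPZ-5676, each with an edgeR adjusted p of 1.00. A product term of shRNA and EPZ-5676, fitted on these 5 libraries and chosen after seeing the data, was called for 0 members, with 0 at an unadjusted p under 0.05 and 0.101% of 14898 genes called. Its median was 0.21 over the members, with 73 above 0, and 0.01 over all genes. An EPZ-5676 effect that differs between shCTL and shNELFE cells was thus not shown.

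The library of shNELFE with EPZ-5676 and HMBA also held more switched-on genes outside the members. Of the genes near silent without HMBA, 141 reached 1 CPM in exactly 1 of the 4 libraries with HMBA. For 87 of them this was shNELFE with EPZ-5676 and HMBA, against 14, 19 and 21 for shNELFE, shCTL with EPZ-5676, and shCTL. The totals of the 4 libraries were 13986833 (shCTL), 13647819 (shNELFE), 16354111 (shCTL with EPZ-5676) and 14090768 counts (shNELFE with EPZ-5676), and the part of depth was not tested.

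Without HMBA the members were not wholly even. Their summed level was 14.7 CPM with shCTL and DMSO, 21.01 with shNELFE and DMSO, 20.9 with shCTL and EPZ-5676, and 26.2 with shNELFE and EPZ-5676. The shNELFE library with EPZ-5676 was thus highest on either side of HMBA, although the 20-read limit of the choice caps these values. The highest single value was FP671120.1, at 1.27 CPM in shCTL with EPZ-5676 and 0 in the other 3, and AP001486.2, at 1.10 CPM in shNELFE with EPZ-5676.

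Just inside the limits, 8 members had 20 reads without HMBA, among them ENSG00000287064, PCDH19, GCNA, NPR3 and CD226. Just outside, 8 genes read in all 4 libraries with HMBA had 21 reads, among them ACSBG1, DHX58, SPOCK2 and UBA7. PTGDR2 and IGSF11 had the smallest lowest level, 1.00 CPM, and SCG5 missed with 0.994 CPM.

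Some members lay behind an active gene. Of the 110 with a position, 29 (26.4%) had a gene of at least 10 CPM ending within 10000 bases upstream on the same strand. The share was 13.3% of 5626 genes within the members' range of levels, given as a description. The distances ran from 401 to 9136 bases with a median of 4271. The shortest were PARD6G-AS1 after ADNP2, at 401 bases, MSANTD1 after HTT at 409 and GRIN2C after FDXR at 993. RPL3L began 4446 bases after RPS2, ASTL 4730 after DUSP2, FGF18 8519 after NPM1, GCNA 2514 after OGT and LAG3 1560 after PTMS. The upstream gene itself was higher with HMBA in 15 of the 29 and lower in 14, at least 2 times in 4 each. Gene counts do not show where a transcript began, so reads of a member and reads running on from its neighbour cannot be told apart.

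For these 29 members the median log2 fold change was 0.34 for the shRNA, with 2 called (RPL3L and ASTL), and 0.05 for EPZ-5676, with 0 called. For the 72 members with neither such a neighbour nor a same-strand overlap it was 0.30, with 7 called, and 0.35, with 2 called. A further 9 overlapped a gene of at least 10 CPM on the same strand, such as LSMEM1 with IFRD1, SLC13A3 with TP53RK and PILRA with PILRB. On the other strand 16 members overlapped such a gene, for example SYN1 with ARAF and TIMP1. These 16 are also counted within the sets above. A difference between these sets was not tested.

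The 110 members with a position were on 20 chromosomes, with 14 on chromosome 1 and 8 each on chromosomes 8 and 12. Besides the MGAM and SLC6A pairs, only PARD6G-AS1 and AC139100.2 on chromosome 18 lay within 100 kb of each other, at means of 1.41 and 2.24 CPM. Of 233 near-silent solute carriers 3 were members (1.29%), and of 68 near-silent potassium channels and 184 near-silent genes with keratin symbols 0 were. These symbols were counted whatever the gene type, and 1.01% of near-silent protein-coding genes were members.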

How the data were processed

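The authors deposited 1 table of raw read counts per gene for 16 libraries, named by Ensembl identifiers, and these counts were used as deposited. Libraries were poly(A) selected and made with a stranded TruSeq kit, per the labels' protocols. The tools and build named are HTSeq 0.6.1p1, STAR 2.4.0b, Cufflinks 2.1.1, edgeR and hg38, per the submitters' processing notes, which give no role. The annotation release was not given in the sources used here, nor was the strand setting. Libraries were grouped by title. Members and lists were chosen with earlier results of these data known.

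CPM is the count over the library total. Tests used edgeR 4.0.16 (R 4.3.3, limma 3.58.1) with TMM scaling, filterByExpr, a quasi-likelihood test and Benjamini-Hochberg adjustment at 0.05 on the 4 libraries numbered 2 with HMBA. The fit kept 14049 genes and has 1 residual degree of freedom, so its spread is borrowed across genes. With no replicate within a group, that degree of freedom is the departure from additive shRNA and EPZ-5676 terms. On simulated data it recovered 72.7% of genes changed 1.5-fold, 89.6% at 2-fold and 100% at 4-fold (13873 genes, shRNA comparison). The simulation drew changed genes from all levels, gave every gene the same dispersion and had additive effects only. These shares therefore do not give the recovery at the low levels of the members. DESeq2 1.42.0, limma-voom, other scalings, no filter, nested terms and other sets of libraries were alternatives.

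Named members are the 25 protein-coding genes with the highest mean, up to 8 called per comparison and direction, members of the tissue lists, and the 3 highest and 3 lowest ratios of replicate 1 to 2 of shNELFE with EPZ-5676 and HMBA. Others were named after their values were seen. The values of 1 member are not reported here, though it is in the counts. Positions are from GENCODE 29, which 58503 of 60676 identifiers matched (110 of the 114 members), and promoters from RefSeq.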

Additional observations from a re-analysis of the deposited data

Results flagged for a closer look

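The 7 libraries numbered 1 that stood apart were not used in the choice or in the main test. Those of them labelled with HMBA entered a test only in the fits of the 8 HMBA libraries of both numbers, given at the end. Over the 7, 79 of the 114 members were under 1 CPM throughout, and 8.77% to 17.5% of members had at least 1 CPM in any one of them. Against this, 5 members reported here reached 10 CPM in at least 1 of the 7, at levels that did not follow the HMBA label. TENM3, a teneurin of neural wiring, reached 83.4 CPM in the library labelled shCTL with HMBA, with 71.6 and 80.1 CPM in those labelled DMSO and 1.83 to 2.60 CPM in 3 others. NEDD9 reached 55.8 CPM in the library labelled shCTL with both compounds and was at 52.3 CPM in that labelled shCTL with DMSO. PCDH19 reached 36.8 CPM, NPR3 16.5 CPM and SLC6A12 10.04 CPM. All 5 were under 12 CPM in the libraries numbered 2. What sets the 7 libraries apart was not tested.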

How the results depend on the processing

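The number of members followed the limits: 54 with at most 10 reads without HMBA, 212 with at most 40, 300 at 0.5 CPM and 36 at 2 CPM. Members called higher for the shRNA numbered 10, and 17 with no filter, 3 with DESeq2 (of 10 with an adjusted p), 0 with the replicate 1 library added, 12 with nested terms, and 5 to 14 leaving out each library. For EPZ-5676 they numbered 2, and 4 with RLE scaling, 1 unscaled, 8 with no filter (1 lower), 0 with the added library, 3 with nested terms, and 1 to 6 leaving out each library. DESeq2 gave no member an adjusted p for EPZ-5676, so it has no count. Over all genes the shRNA calls numbered 1910, and 421 with DESeq2 and 5 with the added library. The EPZ-5676 calls numbered 461, and 817 with RLE scaling, 1108 with no filter, 87 with DESeq2, 1048 with nested terms, 0 with the added library, and, from the nested fit, 1334 and 1336 leaving out either shCTL library and 310 leaving out either shNELFE library. Of 148 values of the 12 called effects under alternatives, 90 stayed past the threshold, 58 did not, and 0 changed direction. From DESeq2, 8 more had no adjusted p. Of the 58, 12 came from each fit of the 8 HMBA libraries of both numbers, and another 12 from the fit with the replicate 1 library added.

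The 8 libraries of both numbers with HMBA gave 0 calls for either effect, over members and over all genes, without a block and 0 with the replicate block. Of the libraries numbered 1 in these fits, all but that labelled shNELFE with EPZ-5676 and HMBA were among the 7 that stood apart. The fitted coefficient of variation between libraries was 0.789 without and 0.645 with the block, against 0.058 in the main fit. These fits cannot tell an absent effect from one hidden by that spread. Same-numbered libraries deviated together with correlations of 0.085 to 0.933, over 0.1 in 25 of 28 pairs of groups. Libraries of the same number thus shared a deviation. What the number marks was not tested, and it was used as a block only in the fit named above. Depth limits the off state of the 8 members at 0 to 3 reads, and 1 residual degree of freedom limits the test.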
